A study of Cyprinus carpio 'koi' with 9 samples.

Results

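The features described here are those whose level was highest in black skin (BS) of Koi carp, the common carp bred for its colors, when black skin was set against red skin (RS) and white skin (WS). A feature is an assembled gene, that is, a group of transcripts built from the reads by the Trinity assembler, and its identifier carries GG where the assembly was guided by the genome and DN where it was de novo. Levels are given as S, the TPM of a feature (its share of a library's transcripts, with length taken into account, scaled to a fixed total) divided by the median TPM of the 29750 features that had an expected count of at least 10 in all 9 libraries. An expected count is the number of read pairs that the program RSEM assigned to a feature. Members had an expected count of at least 10 in all 3 black libraries, and in each of the library numbers 1, 2 and 3 their S plus 0.05 in black was at least 2 times that in red and at least 2 times that in white. These measured values chose the members, so a high level in black is the rule itself and not a finding. The rule was met by 32 features of 446614, which is 0.0805% of the 39768 features with 10 counts in all 3 black libraries. With the colors exchanged, the same rule was met by 23 of 35480 features (0.0648%) for red and by 39 of 45986 (0.0848%) for white, so black skin had neither the most nor the fewest such features. Another 3 features were left out by name, and 1 of them would have met the rule.

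The study compared skin of different color within Koi carp given as strain FFRC. In the study this abbreviation stands for the Freshwater Fisheries Research Center, the institute of the station that supplied the fish. The 3 groups are BS, RS and WS, each with 3 libraries numbered from 1 to 3, taken from 3 fish that each had black, red and white patches at the same time. The labels give an average weight of 200 g and a water temperature of 24 °C for all groups, and no treatment other than the anesthetic MS-222 at sampling. The methods of the study state a higher average weight. Age, sex and genotype are not given in the sources used here, and neither is a statement that libraries with the same number come from the same fish. Sequencing was of poly(A) RNA, in pairs of 150 bp reads, and the expected counts summed to between 13773868 and 25002494 per library. The samples are whole pieces of skin, so fewer cells of a type and less RNA per cell cannot be told apart.

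Black color in fish skin comes from melanophores, cells of the neural crest that fill organelles called melanosomes with melanin. Tyrosinase starts the synthesis of melanin from tyrosine, and tyrosinase-related protein 1 (Tyrp1) and dopachrome tautomerase act after it in the melanosome. Red and yellow colors come from erythrophores and xanthophores, which hold carotenoids and pteridines, and white or silvery skin from cells such as iridophores, which hold reflecting crystals of purines.

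Of the 32 members, 4 are on the list of 42 features that the study annotated with a pigment-related term or pathway (melanosome, melanin synthesis, pigment cell differentiation, Melanogenesis or Tyrosine metabolism). Another 6 are named in the study's lists for other reasons, mostly as mRNAs called differentially expressed on these same libraries. The other 22 have no annotation in the lists as read here. These lists do not cover every feature, and entries that were cut short were left out. No annotation thus does not mean that a gene is unknown. Of the 39768 features with 10 counts in the black libraries, 15 (0.0377%) are on the pigment list, against 4 of the 32 members (12.5%). The study chose the features of this list on these same libraries, so the list is not independent evidence of a direction.

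**Figure D1:**
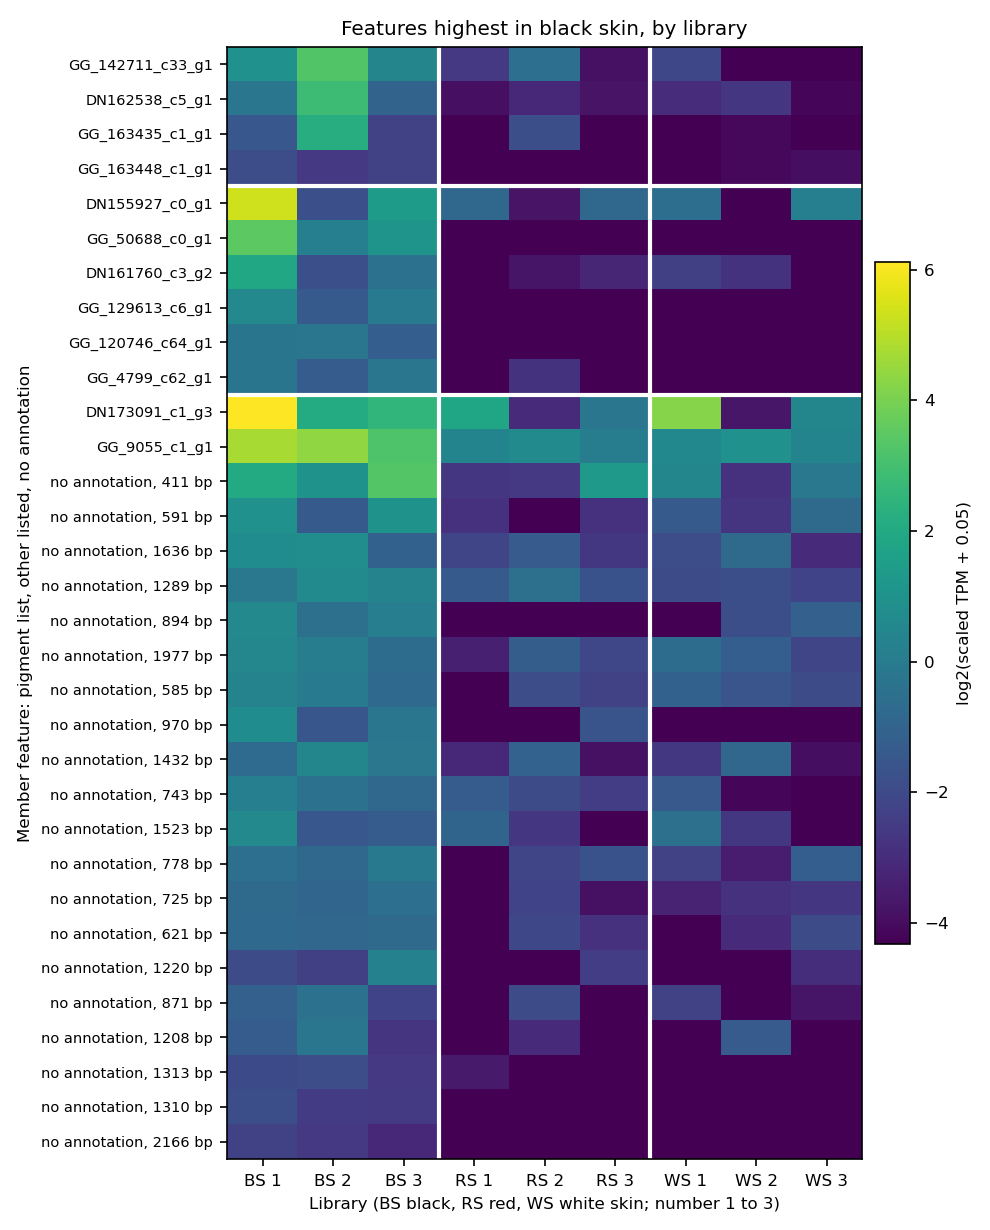
The S of the 32 members in the 9 libraries, as log2(S + 0.05), with 1 row for each member and 1 column for each library, black (BS), red (RS) and white (WS) from left to right. White lines part the colors and the 3 annotation groups, and features with no annotation are given by their median length over the libraries. Only the black columns have values above 0 counts in every row, and the brightest black column differs from row to row.

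The 4 pigment members carry melanosome terms. TRINITY_GG_142711_c33_g1 is annotated to the melanosome membrane, melanin synthesis and copper ion binding, and to the pathways Melanogenesis and Tyrosine metabolism. It had 3.36, 16.92 and 4.17 TPM in black skin of numbers 1, 2 and 3, against 0.13, 2.02 and 0.05 TPM in red skin and 0.53, 0 and 0 TPM in white skin. Black library 2 was the highest of the 9, and the lowest black library was above the highest red and the highest white one. TRINITY_DN162538_c5_g1 has the same terms and had 1.43, 12.35 and 1.45 TPM in black skin, against 0.02, 0.20 and 0.06 TPM in red skin and 0.21, 0.35 and 0.02 TPM in white skin. Here too black library 2 stood above the other black libraries, and the colors did not overlap. For both features the pathways leave tyrosinase and Tyrp1 as candidate orthologs, and the study's pathway lists place tyrosinase on other features, so that by elimination they match Tyrp1, the copper-domain protein that works beside tyrosinase in the melanosome. The same elimination gives Tyrp1 for TRINITY_GG_132409_c0_g1, which is not a member and was named after its values were seen. It had 7.92, 256 and 0 counts in black skin, against 0, 23 and 0 in red skin and 4, 0 and 1 in white skin, with a smallest fold of 0.84. The carp genome holds many near-identical gene copies, and how RSEM divided reads between such copies was not tested.

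The other pigment members are annotated to the melanosome, melanosome organization, eye pigmentation, metal ion binding and the plasma membrane. TRINITY_GG_163435_c1_g1 had 0.55, 7.71 and 0.50 TPM in black skin, against 0, 0.73 and 0 TPM in red skin and 0, 0.03 and 0 TPM in white skin. Red library 2 was above black libraries 1 and 3 in TPM, and on S (0.234) above black library 3 (0.158) but not 1 (0.307). The colors thus overlapped across numbers although black was above red within each number. TRINITY_GG_163448_c1_g1 had 0.41, 0.20 and 0.50 TPM in black skin, against 0 TPM in all 3 red libraries and 0, 0.03 and 0.05 TPM in white skin. Its levels were the lowest of the pigment members, with 16.9, 16.8 and 24.9 expected counts in the black libraries, and it was the one pigment member that was not highest in black library 2. The smallest of the 6 folds of black over red and white was 8.10 for TRINITY_GG_142711_c33_g1, 6.82 for TRINITY_DN162538_c5_g1, 4.15 for TRINITY_GG_163435_c1_g1 and 2.80 for TRINITY_GG_163448_c1_g1, on the scale of S plus 0.05.

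Features with terms of the melanosome and of melanin were also highest in black library 2. Without the members, the summed S of the other features annotated to melanosome organization, melanin synthesis or the melanosome membrane was 1.2, 30.5 and 1.46 in black libraries 1, 2 and 3, against 0.186, 3.65 and 0.476 in red and 0.213, 0.137 and 0.139 in white. This sum still holds the 1 feature left out by name that would have met the rule, and without it the sums were 0.788, 13.2 and 1.13 in black, 0.186, 1.94 and 0.476 in red and 0.213, 0.137 and 0.139 in white. Of the 12 features on this marker list, 2, 0 and 1 were at 0 counts in the black libraries, against 8, 2 and 7 in red and 7, 4 and 6 in white. Library 2 was thus the highest for these markers in black and in red, but not in white. The list leaves out melanocyte differentiation, a term of 12 features, of which 4 had enough black counts and 0 are members. Their smallest folds were 0.30, 0.26, 0.55 and 0.34. In library 2 these 4 had 4.09, 3.28, 2.98 and 3.09 TPM in black, against 8.41, 10.54, 9.16 and 10.4 in red. Red was above black in number 3 too, while in number 1 the order in TPM was not the same in all 4. Features with terms of other pigment cells were also highest in library 2 of black and of red skin. The summed S of 3 features with xanthophore terms was 0.425, 5.06 and 0.789 in black, 0.956, 6.25 and 5.55 in red and 0.585, 2.39 and 0.769 in white. For 4 features with iridophore terms it was 0.570, 2.25 and 0.792 in black, 0.858, 1.65 and 1.31 in red and 0.408, 0.183 and 0.145 in white. Most of these 4 are also annotated to melanin synthesis, including the features on which the pathways place tyrosinase. They stand in the melanophore sums as well, so the iridophore values are not separate from those. The part of these marker features in the members' levels was not tested.

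Most of the pigment list did not meet the rule. Of the 42 features, 27 had fewer than 10 counts in at least 1 black library, 2 were left out by name, 4 are members and 9 had enough counts without reaching the folds. The pathways place tyrosinase on 2 features, and TRINITY_GG_118902_c0_g1 is 1 of the 9 and reached 5 of the 6 folds. It had 0.30, 1.49 and 0.47 TPM in black skin, against 0.06, 1.08 and 0.56 TPM in red skin and 0, 0.04 and 0.04 TPM in white skin, so that red was above black in number 3. The other, TRINITY_GG_98757_c0_g1, had fewer than 10 counts in black libraries 1 and 3, with 0.08, 1.08 and 0.02 TPM in black skin, against 0, 0.05 and 0 TPM in red skin and 0 TPM in all 3 white libraries. Another 2 features of the list reached all 6 folds but had fewer than 10 counts in a black library. One of them, TRINITY_GG_89175_c0_g1, is annotated to the melanosome and had 4.25, 14.36 and 9.37 TPM in black skin, against 0, 0.34 and 0.43 TPM in red skin and 0 TPM in all 3 white libraries, with a smallest fold of 14.3. Its counts were 7.62, 19.0 and 6.45 in black skin, against 0, 7.46 and 7.01 in red skin, so that red had more in number 3, and its effective length (the length that TPM divides by) was 18.1 to 57.0 bp in black skin and 264 to 506 bp in red skin. With 1 effective length for all libraries its smallest fold was 0.71, while 5 of the 6 folds still reached 2. The second was TRINITY_GG_93899_c30_g1, annotated to eye pigmentation and melanosome organization, with 0.10, 9.96 and 0.81 TPM in black skin, against 0, 2.37 and 0.01 TPM in red skin and 0, 0.01 and 0 TPM in white skin. These 4 features were named after their values were seen.

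Of the 6 members listed for other reasons, TRINITY_GG_50688_c0_g1 stood farthest from the other colors. It is annotated to isomerase activity, fatty-acyl-CoA binding, the peroxisome and fatty acid degradation, the terms of an enzyme that takes part in breaking down fatty acids. It had 859, 161 and 340 expected counts in the black libraries, which are 19.80, 1.86 and 6.51 TPM, against 0 counts in all 3 red and all 3 white libraries. Set against a floor of 3 counts per library, this is at least 73.2-fold higher than red and at least 76.7-fold higher than white in every number. TRINITY_GG_120746_c64_g1 is annotated to the presequence translocase of the mitochondrial inner membrane, the channel through which proteins are imported into the matrix. It had 1.40, 1.38 and 1.22 TPM in black skin, against 0 in all 6 other libraries, which is at least 12.1-fold higher than red and at least 14.3-fold higher than white. Its black libraries lay close together, within a factor of 2.07 on S, while those of TRINITY_GG_50688_c0_g1 spanned a factor of 10.3.

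TRINITY_DN155927_c0_g1 is annotated to locomotory behavior and had the widest spread of all members, a factor of 169 between the highest and the lowest black S. It had 73.45, 0.42 and 8.15 TPM in black skin, against 0.60, 0.07 and 1.37 TPM in red skin and 1.79, 0 and 3.52 TPM in white skin. Black library 2 was below 2 red and 2 white libraries of other numbers, and the feature is a member only because the comparison is made within numbers. The summed S of 31 features with muscle terms was 5602, 5.68 and 184 in black libraries 1, 2 and 3, against 299.8, 4.90 and 267 in red and 79.6, 89.4 and 71.3 in white. The order of the black libraries was the same for this list and for the feature, and on S so was that of the red ones. In white skin the list was highest in library 2, where the feature was at 0. Other members had the same order of black libraries on S, among them TRINITY_GG_50688_c0_g1 and TRINITY_DN161760_c3_g2, so it is not particular to this feature. The part of the muscle features in the level of TRINITY_DN155927_c0_g1 was not tested.

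The last 3 listed members carry no term and are listed by the study as differentially expressed mRNAs. TRINITY_DN161760_c3_g2 had 6.87, 0.42 and 2.19 TPM in black skin, against 0, 0.08 and 0.16 TPM in red skin and 0.41, 0.31 and 0 TPM in white skin. TRINITY_GG_129613_c6_g1 had 2.61, 0.58 and 2.98 TPM in black skin, against 0 in all 6 other libraries, which is at least 7.25-fold higher than red and at least 7.70-fold higher than white. TRINITY_GG_4799_c62_g1 had 1.40, 0.63 and 2.58 TPM in black skin, against 0, 0.29 and 0 TPM in red skin and 0 TPM in all 3 white libraries. In all 3 the black libraries stood above the red and white ones, and black library 2 was the lowest of the black ones.

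**Figure D2:**
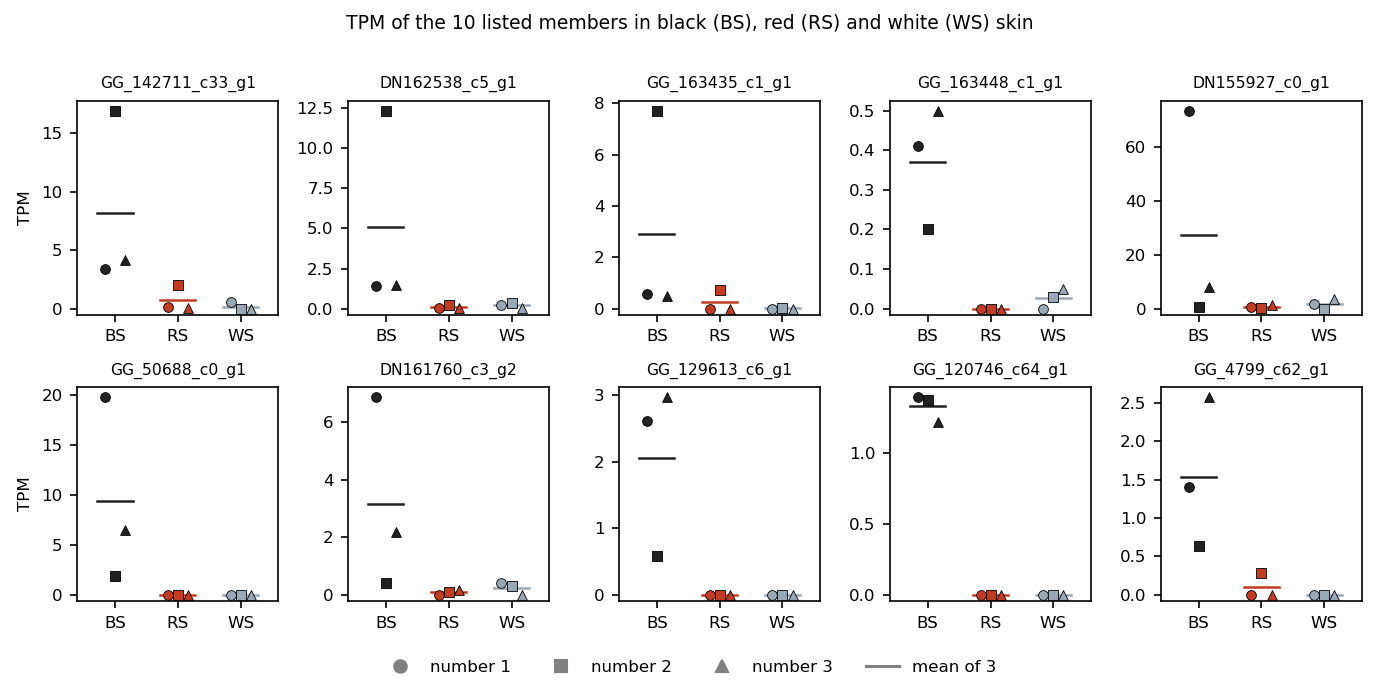
The TPM of the 10 listed members in black (BS), red (RS) and white (WS) skin, with 1 panel for each feature and its own axis from 0. Circles, squares and triangles are the libraries of numbers 1, 2 and 3 and the lines are means of 3. In the first 3 panels black library 2 is the highest, at 16.92, 12.35 and 7.71 TPM.

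The 22 members with no annotation had S of 0.0662 to 69.5 in black skin with a median of 0.676, against 0 to 3.50 with a median of 0.0889 in red skin and 0 to 18.7 with a median of 0.104 in white skin. Of these 22, 14 had fewer than 20 expected counts in at least 1 black library. The 2 with the highest levels were TRINITY_DN173091_c1_g3 and TRINITY_GG_9055_c1_g1. TRINITY_DN173091_c1_g3 had 124.34, 7.4 and 18.57 TPM in black skin, against 3.95, 0.21 and 2.16 TPM in red skin and 52.70, 0.09 and 4.34 TPM in white skin. TRINITY_GG_9055_c1_g1 had 47.85, 36.43 and 30.10 TPM in black skin, against 1.43, 4.78 and 2.69 TPM in red skin and 4.03, 6.27 and 4.11 TPM in white skin. The colors overlapped for the first of these and did not overlap for the second.

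The expected counts of these 2 features were closer between colors than their TPM. TRINITY_DN173091_c1_g3 had 114, 21.5 and 103 counts in black skin, against 6.69, 7 and 51.0 in red skin and 58.6, 3 and 99.97 in white skin, so that black had the most counts within each number. These counts are not scaled for depth. With 1 effective length for all libraries, its S in number 3 was 5.98 in black and 6.76 in white. TRINITY_GG_9055_c1_g1 had 54.4, 97.9 and 81.5 counts in black skin, against 29.5, 116 and 47.6 in red skin and 62.0, 153 and 71.2 in white skin, so that white library 2 had the most. TPM divides the count by an effective length, which RSEM takes as a mean over the transcripts of a feature, weighted by their shares in each library. This effective length was 36.2 to 71.1 bp for TRINITY_GG_9055_c1_g1 in the black libraries, against 485 to 552 bp in the red and white ones. For TRINITY_DN173091_c1_g3 it was 29.1 to 146 bp in black skin and 39.8 to 731 bp in red and white skin. The TPM of both features in black skin thus rested on shorter effective lengths than in most red and white libraries.

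When 1 effective length, the median over the 9 libraries, was used for each feature, 23 of the 32 members still met the rule and 9 did not. All 4 pigment members and all 6 other listed members met it, against 13 of the 22 with no annotation. Of the listed members, 9 are mRNAs that the study called differentially expressed from counts of these same libraries. The split by annotation is therefore not independent of the counts, and nothing is read from it. The 9 that were lost all have 2 or more transcripts, and the 14 members of 1 transcript were all kept. In these 14 the highest effective length was only 1.06 to 1.33 times the lowest. Their folds could therefore hardly change, and nothing is read from their being kept. In TRINITY_GG_9055_c1_g1 none of the 6 folds reached 2 on this scale and the smallest was 0.92, while 4 of the 6 did in TRINITY_DN173091_c1_g3, where the smallest was 0.88. On normalized counts with no length at all (TMM-normalized CPM), 16 members met the rule, all of them among the 23, including the 4 pigment members and 4 of the 6 other listed ones. The effective length differed by more than 1.5 times between libraries in 10 members (31.2%), against 13605 of the 39768 features with 10 counts in black skin (34.2%). The members were close to the background in this share. It counts a difference in any direction, so it does not show how often the length was shorter in black skin. These scales with 1 effective length were chosen after seeing the data.

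**Figure D3:**
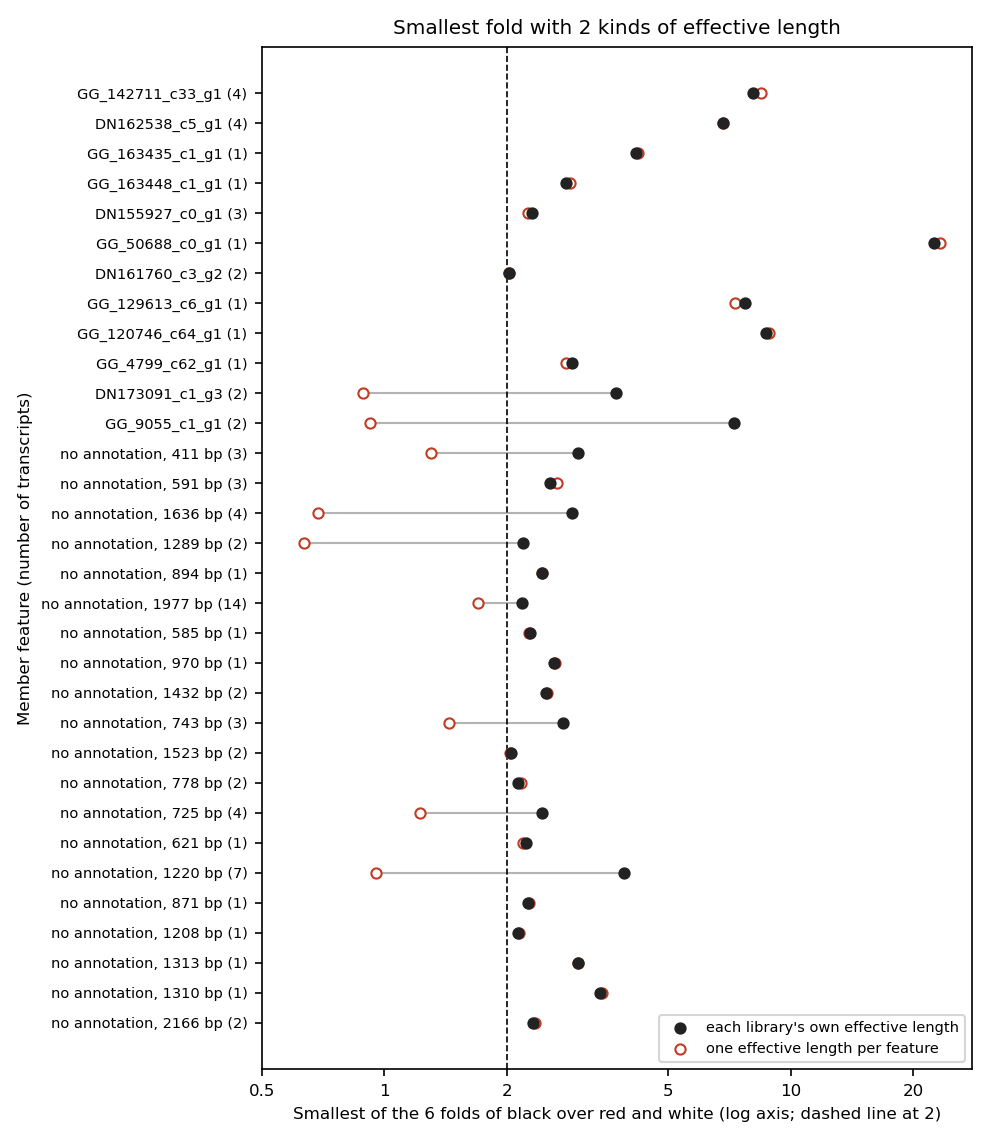
The smallest of the 6 folds of black over red and white for each member, on a log axis, with the effective length of each library (filled black) and with 1 effective length per feature (open red). The number of transcripts is given in parentheses and the dashed line marks the fold of 2. The open points of 9 members, all with no annotation, lie left of the line, down to 0.64.

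Across all members, the smallest of the 6 folds ran from 2.03 to 22.5 with a median of 2.68. Just inside the rule were features with 2.03 (TRINITY_DN161760_c3_g2), 2.05 and 2.13, and just outside were features with 1.97, 1.93 and 1.93. Between folds of 2 and 2.5 there were 14 features, against 97 between 1.5 and 2, so the features thinned out across the limit with no gap. All 3 black values were above all 6 red and white values in 22 members, against 256 of the 39768 features with 10 counts in black skin (0.644%), a share that the rule itself raises. In the other 10 members the colors overlapped across numbers.

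Black libraries of 1 member often differed more among themselves than the fold of the rule. The highest black S was 1.14 to 169 times the lowest, with a median of 3.42. This ratio was under 2 in 7 members, 5 or more in 12 and 10 or more in 6. The highest black library was number 1 in 15 members, number 2 in 10 and number 3 in 7. The summed S of the 32 members was 179, 64.3 and 47.1 in black libraries 1, 2 and 3, against 7.10, 5.99 and 6.59 in red and 25.8, 5.21 and 6.98 in white. In white library 1, TRINITY_DN173091_c1_g3 alone held 18.7 of the 25.8. Together with TRINITY_GG_9055_c1_g1 it held 96.2, 25.3 and 15.4 of the sums in the black libraries, and the other 30 members summed to 82.8, 39.0 and 31.7 in black, 2.34, 4.39 and 4.79 in red and 5.67, 3.27 and 4.37 in white.

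Many members were absent from libraries of the other colors at this depth. Of the 96 values in each color, 42 were at 0 counts in red (43.8%) and 40 in white (41.7%), against 1.80% in red and 1.05% in white over all features with 10 counts in black skin. The rule asks for low values in red and white and for counts in black, so these shares are set by it in part and nothing is read from them. There were 5 members at 0 counts in all 6 red and white libraries, 3 of them named above and 2 with no annotation, and these were also the only 5 such features among the 39768 with 10 counts in black skin. In each library 3 counts was taken as the floor for a count of 0, for counting error only, and black counts were taken as exact. The folds given as at least are set by this floor and are not strict lower bounds. The members were shallow themselves, since the lowest of the 3 black counts had a median of 18.5 in members and of 36 in all features with 10 counts in black skin.

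The members had a median length of 1214 bp, against 1410 bp for all features with 10 counts in black skin. A single transcript made up 14 members (43.8%), against 30.2% of those features, and 19 members (59.4%) came from the genome-guided assembly, against 56.4%. No 2 members had identical counts, and 0 members shared an assembly cluster number with another. These are descriptions, and the rule works on length through TPM and on depth through its minimum count.

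The share of features that reached the fold in a number not used to choose them was read next. Features were chosen on 2 numbers and read in the third. Of 306 features chosen on numbers 2 and 3, 50 (16.3%) were at least 2 times above red and white in number 1, against 6.32% of all features with 10 counts in the 2 black libraries used. The shares were 39 of 468 (8.33%) against 3.98% for number 2, and 43 of 387 (11.1%) against 2.13% for number 3. The share was above that of all features in each of the 3 numbers, but 32 of the 50, of the 39 and of the 43 are the members themselves, as the rule makes them, and the other 18, 7 and 11 had fewer than 10 counts in the third black library. The shares are therefore a description and no support for the members. Black was simply above red and white in 29.1%, 26.3% and 29.7% of the chosen features in numbers 1, 2 and 3, against 31.9%, 32.4% and 30.0% of all features. Here the share of the chosen features was below that of all features in each number. No test was made of these shares. With the colors exchanged, 12.9%, 9.22% and 12.9% of the features chosen for red reached the fold in the number not used, and 19.6%, 9.37% and 11.4% of those chosen for white, a range that overlaps that of black.

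**Figure D4:**
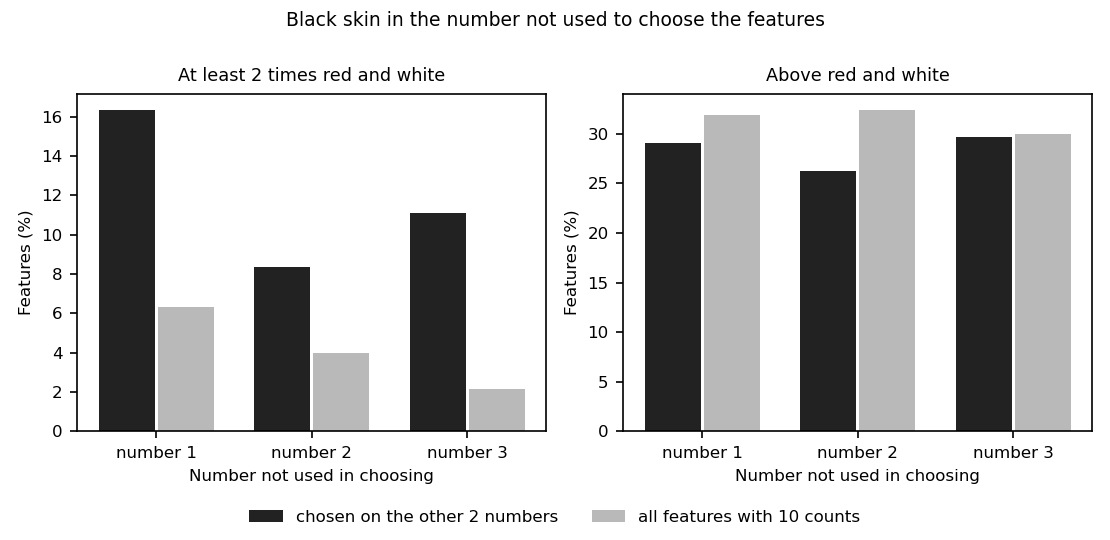
The share of features, in percent, that were at least 2 times red and white (left) or simply above both (right) in black skin of the number not used to choose them. Black bars are features chosen on the other 2 numbers and grey bars all features with 10 counts in those black libraries. Black bars are higher than grey on the left, at 16.3%, 8.33% and 11.1%, and lower on the right.

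Red and white skin were compared with each other, a comparison that the rule did not use because it treats both alike. By edgeR's quasi-likelihood test, 0 of 66740 features (0%) passed the limits of 0.05 for the false discovery rate (FDR) and of 1 for the size of the log2 fold change, and 271 (0.406%) had an unadjusted p under 0.05, while DESeq2 called 57. Of the 32 members 9 had enough counts in red and white skin to be tested, 0 were called by either tool, and 0 had an unadjusted p under 0.05. The log2 fold change of RS over WS had a median of -0.51 in these 9 and of -0.02 in all features tested, and it was above 0 in 1 of the 9. This order rests on the 9 that passed the filter, since with all 9 libraries in one fit 29 members were tested, 14 above 0 and 15 below, with a median of -0.26, and without number 1 the median was -0.17 over 13 members. The 1 pigment member tested, TRINITY_DN162538_c5_g1, stood at -0.87 on the log2 scale (standard error 1.23). The highest value was 1.01 (standard error 0.68), in a feature of 1289 bp with no annotation, and TRINITY_DN173091_c1_g3 had the lowest, -1.10 (standard error 1.35). These errors were derived from the test, as the size of the change divided by the square root of its F value. They belong to the fit without a block for the number, and they are as large as most of the changes. With the replicate block the errors were 1.24, 0.54 and 0.77 for the same 3 features, at changes of -0.56, 0.92 and -0.71. In that fit 0 members were called and 0 had an unadjusted p under 0.05. No difference between red and white skin was thus detectable in the 9 members tested at this depth and spread. By the quasi-likelihood test with no filter, 2 of 27 members had an unadjusted p under 0.05, against 4097 of 279939 features. With all 9 libraries in one fit it was 2 of 29 members, against 597 of 78848 features. Neither of these fits called a member.

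Within numbers, 3 members were higher in red than in white and 16 lower in number 1, 12 and 12 in number 2, and 11 and 11 in number 3, and the rest were equal, mostly at 0. Red was above white in all 3 numbers in 2 members (6.25%), against 11.1% of all features with 10 counts in black skin, and below it in all 3 in 3 members (9.38%), against 12.5%. The members thus took no one order of red and white.

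**Figure D5:**
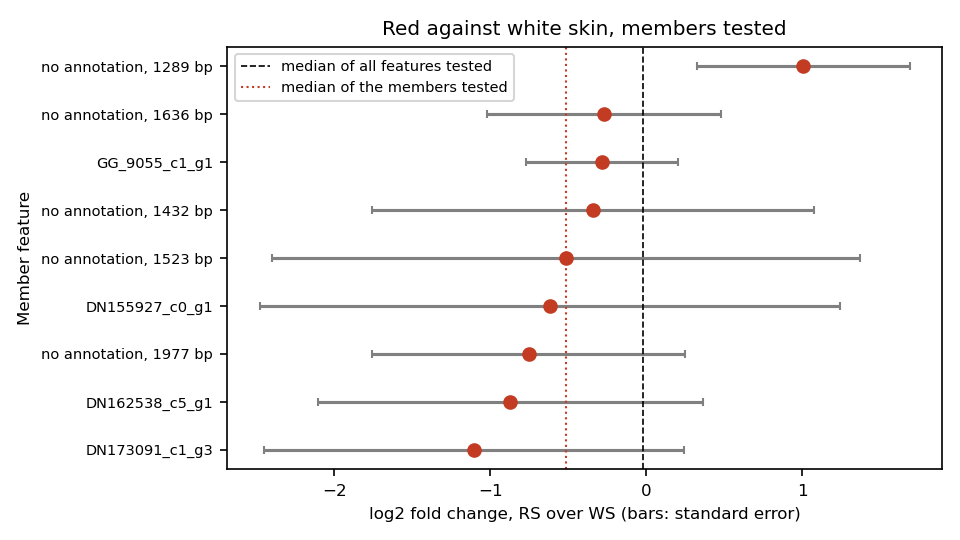
The log2 fold change of RS over WS for the 9 members that could be tested, from the quasi-likelihood test, with bars for the standard error derived from its F value. The dashed line is the median of all 66740 features tested (-0.02) and the dotted line that of the 9 members (-0.51), and 8 of the 9 points lie left of 0.

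In the 2 comparisons that the rule used, the same test called 0 of 68812 features (0%) for BS against WS and 0 of 65727 (0%) for BS against RS, with 262 and 216 at an unadjusted p under 0.05. Of the members 29 were tested in each, and 0 were called. Their median log2 fold change on counts was 2.4 over white and 2.74 over red, from which nothing is read, because the rule chose them on these contrasts. DESeq2 called 6 members over white and 5 over red, among 43 and 33 features in all.

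The pigment list gave no call in any comparison by the quasi-likelihood test with its filter on counts. For BS against WS 22 of its 42 features were tested, with a median log2 fold change of 1.90 and 14 at an unadjusted p under 0.05, while DESeq2 called 4 higher and 2 lower. For BS against RS 30 were tested, with a median of -0.79 and 6 at an unadjusted p under 0.05, while DESeq2 called 1 higher. For RS against WS 16 were tested, with a median of 2.41 and 8 at an unadjusted p under 0.05, while DESeq2 called 4 higher. Over all features tested, the medians were 0.01, 0.02 and -0.02 in the same comparisons. With no filter, the quasi-likelihood test called 10 features of the list higher and 2 lower for BS against WS. It called 4 higher and 2 lower for BS against RS, and 7 higher and 0 lower for RS against WS. The study chose this list among mRNAs it called different on these same libraries, and the list holds the 4 pigment members. The distance from all features was thus set in part beforehand, and nothing is read from these medians, p-values and calls. The medians of the list moved with the setting and with the features tested, over 0.76 (limma-trend) to 4.99 (no filter) for BS against WS, 1.21 (limma-trend) to 3.73 (without number 1) for RS against WS and -0.98 (without number 1) to -0.34 (without number 3) for BS against RS.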

How the data were processed

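Expression was measured in 9 libraries of Koi carp skin, 3 each of BS, RS and WS, grouped by the sample labels. According to its methods and the submitters' processing notes, the study used TopHat2 2.0.10 to map reads to the genome of the common carp. It used Trinity for assembly, CD-HIT to cluster what was assembled, and RSEM to quantify each assembled gene. The processing notes give RSEM 1.2.21, and the methods give a different version. Expected counts, as deposited, estimate the read pairs of each feature and are not whole and not normalized. The deposited TPM values are shares per effective length scaled by the authors' RSEM run to a fixed total. The deposited FPKM values are fragments per kilobase of effective length, scaled to the read pairs assigned. Annotation came from the study's lists of terms and pathways, matched by identifier.

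S, the folds and their alternatives were computed with Python 3.11.15, pandas 2.3.3 and numpy 2.4.6. Expected counts were rounded, filtered by filterByExpr with a minimum count of 10, normalized by TMM and tested with edgeR 4.0.16 (glmQLFit, glmQLFTest) for 2 colors at a time without a block, with Benjamini-Hochberg adjustment over all features tested. A call needed an FDR of 0.05 or less and a log2 fold change of 1 or more in size. DESeq2 1.42.0 and limma 3.58.1 on log2(FPKM + 1) gave alternatives, in R 4.3.3. The other alternatives were RLE size factors, no filter, all 9 libraries in one fit, a replicate block and each number left out, and for the rule other pseudocounts, folds, minimum counts and scales. Scripts were tested on simulated data.

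The members and lists were chosen with earlier results of these data known. Named are all pigment members, the other listed members, the 2 unannotated members with the highest S and the listed feature next to the fold limit. Whether the numbers pair the libraries was checked from the deviations of each library from its color's mean over 78848 features. Libraries of the same number correlated at 0.53 to 0.80 (9 pairs) and of different numbers at -0.60 to 0.02 (18 pairs). Deviations from a color's own mean cancel within the color, so the low values for different numbers are not separate evidence. By the values of the same number the libraries are paired in the data, not by a statement of the labels. Library 2 also had the largest summed counts in each color, and whether fish or depth lies behind the pairing was not tested. The labels name 3 fish but tie no library to a fish, so p-values measure the spread between these libraries, which may be technical in part.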

Additional observations from a re-analysis of the deposited data

How the results depend on the processing

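The number of members depended on the settings. It was 5 with a pseudocount of 0.5, 129, 11 and 7 with folds of 1.5, 3 and 4, 15 and 75 with minimum counts of 20 and 5, 21 on TMM-normalized CPM, 11 with numbers ignored, and 306 to 468 without 1 number. With a pseudocount of 0.01 it was 46, and 24 with 1 effective length per feature, a scale added after seeing the data. Features called for RS against WS, BS against WS and BS against RS were 346, 389 and 355 with no filter and 57, 43 and 33 by DESeq2. No member was called for RS against WS by any setting. For BS against WS 9 members were called with no filter and 6 by DESeq2, and for BS against RS 9 and 5. With the replicate block, 0 features were called in each comparison, and 1089, 1364 and 1247 had an unadjusted p under 0.05, as did 17 features of the pigment list for BS against RS, against 6 without the block. The median log2 fold change of the members for RS against WS was -0.43 with RLE size factors, -0.32 with no filter, -0.41 by DESeq2, -0.26 with all 9 libraries in one fit, -0.31 with the replicate block, -0.37 by limma-trend, and -0.36 to -0.17 without 1 number. For BS against WS it was 3.51 with the replicate block, 1.48 by limma-trend and 2.30 to 3.72 without 1 number, the highest without number 3. For BS against RS it was 1.58 by limma-trend and 2.27 to 4.40 without 1 number, the highest without number 2. Part of these shifts goes with the members tested, 9 to 29 of them for RS against WS, and the cause was not tested further. Of the 232 values of named members under the alternatives, 25 were called where the quasi-likelihood test with its filter made no call. These calls came from that same test with no filter and from DESeq2. Another 3 values had the other sign without being called. With 3 libraries a color and few counts per member, small differences between red and white skin could not be detected.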
